A study of Danio rerio with 4 samples.

Results

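Zebrafish eyes of *tet2*-/-;*tet3*-/- mutants and of their siblings were compared at 36 hours post-fertilization (hpf), 1 sample of each and 2 of the 4 samples of the series, over all genes counted at that stage. Tet proteins oxidize 5-methylcytosine in DNA to 5-hydroxymethylcytosine, a step in the removal of methyl marks, and the study asked what their loss does to the developing retina. The mutants carry the frameshift alleles *tet2* au59 and *tet3* au60 in the TL strain and come from in-crosses of double heterozygotes. The siblings are the phenotypically wild-type embryos of such crosses, so they can hold several genotypes. Both samples are poly-A RNA of untreated whole dissected eyes, pooled from many embryos. At 36hpf the retina is a proliferating sheet of progenitor cells in which the first neurons, the ganglion cells, are being born under bHLH proneural factors and Notch signaling, while the lens fibers fill with crystallins. A dissected eye also carries overlying epidermis, periocular mesenchyme of neural crest origin, and blood vessels with their contents.

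The authors' table gives for each of 31388 genes and each genotype the mean of 2 whole read counts. Doubled, the means came to 106912677 reads for mutant-labelled eyes and 88875538 for sibling-labelled eyes. Values are reads, or CPM (counts scaled by these totals), and a difference is the log2 of mutant-labelled over sibling-labelled CPM. A minimum of 20 reads, summed over the pair of libraries, kept 21876 genes. Each genotype is 1 sample, which leaves no replicate error and no test. Differences are therefore described by size, and 95% intervals (exact, Clopper-Pearson) cover counting error only. Below, past 1 or past 2 means a log2 difference that large or larger in mutant-labelled eyes, and past -1 or -2 one that low or lower. The 2 counts behind a mean can be told apart by size only, as a larger and a smaller count. Over 18043 genes with at least 100 reads, the log2 difference taken from the larger counts and that from the smaller counts lay a median of 0.0842 apart, and more than 1 apart for 1.03% of genes. All 418 of these genes that were past 2 or -2 kept that direction, with a size of 1 or more, in both. Pairing by size brings the 2 differences closer, and the 418 genes were picked by the sum of the same counts. These values are therefore no measure of replicate error and no support for a direction. The labels name no replicates behind the 2 counts.

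The read counts of the targeted genes give no check of the labels. *tet2* had 12459 reads in mutant-labelled and 9646 in sibling-labelled eyes (log2 0.10, interval 0.06 to 0.14), *tet3* had 8611 and 8381 (-0.23, interval -0.27 to -0.18), and *tet1* had 2250 and 2042 (-0.13). Reads are counted over whole genes, and from which alleles they come was not tested here. The paper states that its RNA-seq of mutants at the stage compared here found no *tet2* or *tet3* transcripts of wild-type, maternal origin. Counts over whole genes cannot show this. By RT-PCR, at later stages, the paper found *tet2* transcripts in siblings and none in mutants. Why *tet2* reads were not lower in mutant-labelled eyes was not tested. The libraries are called mutant-labelled and sibling-labelled throughout, and every direction below rests on the labels. Both libraries carried the transcription factor genes of the eye field. *rx1* had 39274 reads in mutant-labelled and 25134 in sibling-labelled eyes, *rx2* had 7925 and 6388, and *six3b*, of the Sine oculis family, had 14674 and 9456. The pigment gene *pmela* had 96071 and 65723 reads.

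Most genes had nearly the same share of the reads in both libraries. The median log2 difference was 0.04 with quartiles at -0.25 and 0.40, and 84.8% of genes lay between -1 and 1. In mutant-labelled eyes 402 genes were higher by 2 or more (1.84% of those kept) and 296 lower by 2 or more (1.35%). At a size of 1 the counts were 2048 higher (9.36%) and 1282 lower (5.86%). These percentages are the background for every list below. Counting error left 137 of the 402 and 158 of the 296 genes with an interval entirely beyond the threshold of 2 or -2.

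How many genes differed depended on their level. Under 1 CPM, 16.3% of 5620 genes were past 1 and 12.4% past -1, and the median width of the interval was 1.61, wider than the threshold of 1. From 1 to 10 CPM the shares were 11.7% and 5.76% of 6681 genes, and from 10 to 100 CPM 4.09% and 2.08% of 7757 genes. From 100 to 1000 CPM the lower genes were the more frequent, with 1.95% of 1688 genes past 1 and 2.25% past -1. Past -2 there were 18 genes against 7 past 2. Most of these 18 were crystallin genes of the lens, among them *crygm2d1* (-3.88), *cryba1b* (-2.47) and *crybb1l2* (-2.27). The shares of that level without crystallin genes were not computed. Of 130 genes at 1000 CPM and over, which held 30.3% of the reads of mutant-labelled and 29.5% of those of sibling-labelled eyes, 3 were past 1 or -1. These were the keratin genes *krt4* (log2 2.08) and *cyt1l* (2.04) on the high side and the beta-crystallin gene *crybb1l1* (-2.51) on the low side.

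**Figure D1:**
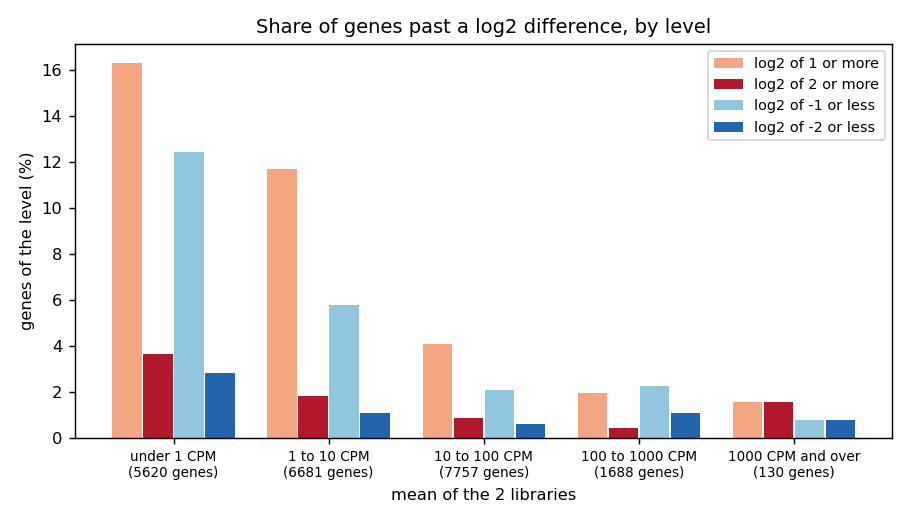
Share of the genes of each level (percent, y axis) with a log2 difference of 1 or more, 2 or more, -1 or less and -2 or less, mutant-labelled over sibling-labelled eyes at 36hpf, by mean CPM (x axis, with the number of genes). At 1 or more the share is 16.3% under 1 CPM and 1.54% at 1000 CPM and over. From 100 to 1000 CPM the lower genes, many of them crystallins, are more frequent than the higher.

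Among the genes that took most reads, 7 of the 10 leading genes were shared, led in both libraries by the mitochondrial *mt-co1* and the translation elongation factor gene *eef1a1l1*. *krt4*, with 566026 reads in mutant-labelled and 110955 in sibling-labelled eyes, was among the 10 in mutant-labelled eyes only, and its gain of 4046 CPM was the largest of all genes. The largest loss was that of *hmga1a*, a chromatin protein gene of proliferating cells, with 869350 reads in mutant-labelled and 980675 in sibling-labelled eyes (-0.44). It fell by 2903 CPM, although its log2 difference was small. Of all CPM gained in mutant-labelled eyes, 8.0% lay in keratin genes and 7.72% in genes of cytosolic ribosomal proteins. Keratins took 0.991% of the reads of mutant-labelled and 0.271% of those of sibling-labelled eyes. For ribosomal protein genes these shares were 12.5% and 11.8%, so their part of the gain came from a small change of abundant genes. Of all CPM lost, 10.8% lay in crystallin genes. *gpm6aa*, a membrane glycoprotein gene of neurons, had 20145 reads in mutant-labelled and 77979 in sibling-labelled eyes (-2.22, interval -2.24 to -2.2), and was the one gene past -2 among the 10 largest losses that is no crystallin.

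**Figure D2:**
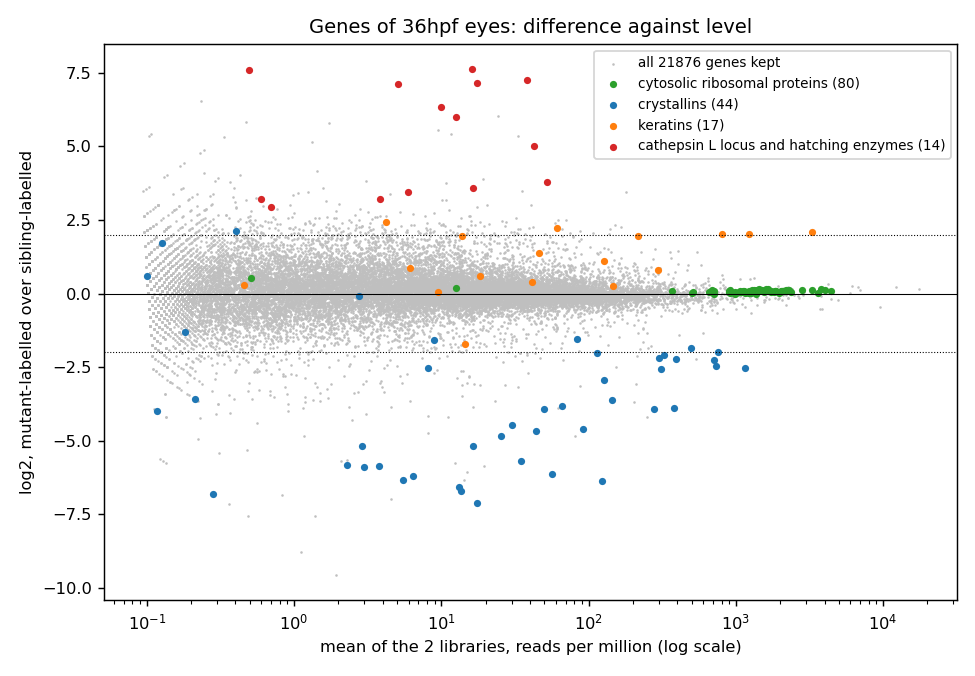
Log2 difference of mutant-labelled over sibling-labelled eyes (y axis) against the mean CPM (x axis, log scale) for the 21876 genes kept at 36hpf, with dotted lines at 2 and -2 and 4 gene groups in color. Genes of ribosomal proteins lie close to 0 at high levels, keratins reach 2.45, crystallins reach -7.12, and the cathepsin L locus and hatching enzymes lie between 2.94 and 7.62.

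Genes that start the making of neurons were lower in mutant-labelled eyes. Proneural factors are bHLH and zinc finger proteins that commit progenitors to become neurons. Of 19 such genes of the list in the table, 13 were kept, 12 of these were below 0, 7 past -1 and 1 past 1, around a median of -1.05 against 0.04 over all genes. Together they took 0.0172% of the reads of mutant-labelled and 0.0642% of those of sibling-labelled eyes. The largest part of that difference lay in *insm1a*, a zinc finger factor of newborn neurons, with 3150 reads in mutant-labelled and 33308 in sibling-labelled eyes (log2 -3.67, interval -3.72 to -3.62). The 2 counts behind these sums were 2034 and 1116 in mutant-labelled eyes and 19453 and 13855 in sibling-labelled eyes. They are parts of the same sums and give the direction no further support. Its paralog *insm1b* had 2331 and 2677 reads (-0.47). *neurod6b*, a bHLH factor of differentiating neurons, had 165 reads in mutant-labelled and 661 in sibling-labelled eyes (-2.26, interval -2.52 to -2.02), and *olig2*, a factor of neural progenitors and oligodendrocytes, had 998 and 2245 (-1.44). The exception past 1, *ascl1b_1*, had 39 and 15 reads, while a second row for that gene, *ascl1b_2*, had 302 and 612 (-1.28). Among the *her* genes, bHLH repressors many of which are Notch targets and act against proneural factors, low ones were *her8.2*, with 12 reads in mutant-labelled and 119 in sibling-labelled eyes (-3.52), and *her13*, with 924 and 3866 (-2.33).

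Genes of the neurons themselves were mostly lower too. Of 26 ganglion cell genes kept, 10 were past -1 and 3 past 1, around a median of -0.65. *pou4f2*, the POU factor needed for ganglion cell differentiation in mice, had 23 reads in mutant-labelled and 136 in sibling-labelled eyes (-2.80, interval -3.54 to -2.19). *isl1*, a LIM factor of ganglion cells, had 597 and 1972 (-1.99). *cxcr4b*, a chemokine receptor that guides ganglion cell axons in zebrafish, had 416 and 2406 (-2.80, interval -2.95 to -2.65), and *rtn4rl2b*, a Nogo receptor-like gene, had 6 and 59 (-3.45). On the high side were *pou4f1* (82 and 28 reads, 1.27) and both rows of the axon guidance receptor gene *robo2*, of which *robo2_1* had 97 and 19 (2.06) and *robo2_2* had 2443 and 949 (1.1). The ganglion cell list as a whole took 0.0820% of the reads of mutant-labelled and 0.111% of those of sibling-labelled eyes. In bulk RNA, fewer cells of a type and less RNA per cell cannot be told apart.

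Amacrine and horizontal cell genes (29 genes) had a median of -0.48, with 9 past -1 and 5 past 1. *ptf1a*, the factor that specifies these inhibitory cells, had 11 reads in mutant-labelled and 152 in sibling-labelled eyes (-3.99, interval -5.09 to -3.17). *foxn4*, which acts before it in mice, had 11824 and 35047 (-1.83, interval -1.86 to -1.80), and *slc32a1*, the vesicular transporter of inhibitory transmitters, had 684 and 1412 (-1.31). The highest of that list was *tfap2c*, with 7458 and 1289 (2.27), a gene that epidermis expresses as well. Of 13 bipolar cell genes kept, 4 were past -1 and none past 1, around a median of -0.61, the lowest being the bHLH gene *bhlhe23* with 15 reads in mutant-labelled and 41 in sibling-labelled eyes (-1.68, interval -2.68 to -0.83). Photoreceptor transcription factors (14 genes) had a median of -0.55, with 6 past -1 and none past 1.

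**Figure D3:**
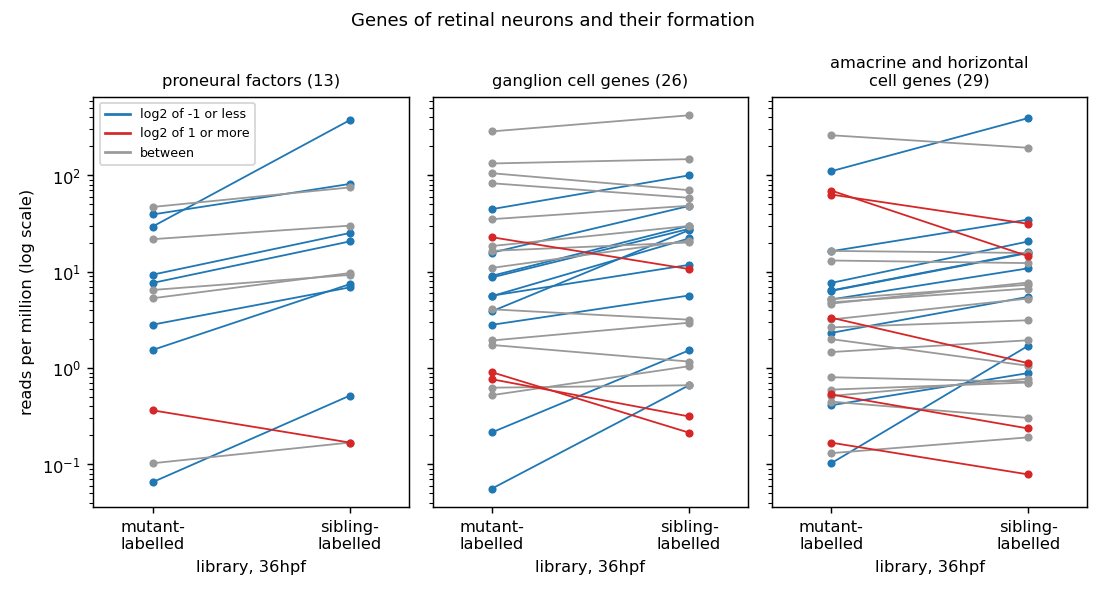
CPM (y axis, log scale) in mutant-labelled (left) and sibling-labelled eyes (right) at 36hpf, 1 line per gene, for 13 proneural factors, 26 ganglion cell genes and 29 amacrine and horizontal cell genes. Blue lines, with a log2 difference of -1 or less, are 7, 10 and 9 of these, and red lines, with 1 or more, are 1, 3 and 5. The steep blue line of the proneural factors is *insm1a*, at 29.5 and 375 CPM.

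Genes that neurons use to signal had medians nearer to 0. Glutamate receptor genes (45 genes) had a median of -0.34, with 10 past -1 and 2 past 1. The NMDA receptor subunit genes *grin1a* (269 reads in mutant-labelled and 663 in sibling-labelled eyes, -1.57) and *grin1b* (158 and 401, -1.61) were both among the lowest, next to the AMPA receptor gene *gria2b* (150 and 491, -1.97) and the metabotropic receptor gene *grm2a* (22 and 131, -2.81). Genes of synaptic vesicles and release (76 genes) had a median of -0.29, with 8 past -1 and 3 past 1, and *snap25b*, a SNARE gene of neurons, was the lowest with 193 and 493 reads (-1.62). The sum of that list ran the other way, at 0.0527% of the reads of mutant-labelled and 0.0499% of those of sibling-labelled eyes. Receptors of GABA and glycine (28 genes) had a median of -0.17, which turned to 0.12 with a minimum of 100 reads, and took 0.00725% and 0.0065% of the reads. POU genes as a family (15 genes) had a median of -0.45 and took 0.0309% of the reads of mutant-labelled and 0.0739% of those of sibling-labelled eyes, in part through *pou2f2a_2* (12702 and 36629 reads) and *pou3f1* (3821 and 12240).

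Progenitor genes did not share that direction. Retinal progenitor and eye field factors (19 genes) had a median of 0.26, with 2 past 1 and 2 past -1, while their sum took 0.270% of the reads of mutant-labelled and 0.294% of those of sibling-labelled eyes. The LIM factor gene *lhx9* had 7780 reads in mutant-labelled and 2251 in sibling-labelled eyes (1.52) and the Meis homeobox gene *meis1a* had 1655 and 361 (1.93), while the homeobox gene *six6b* had 1298 and 2622 (-1.28) and *hes6*, a bHLH gene that promotes neurogenesis, had 15183 and 28725 (-1.19). Hedgehog pathway genes, which act on the spread of neurogenesis in the fish retina, had a median of 0.22, and none of 20 lay past 1 or -1. Nasal and temporal patterning genes also had none of 10 past 1 or -1, around a median of 0.12.

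Of 20 genes of dorsal and ventral eye patterning, 15 were above 0 and 5 below, and the genes far from 0 were few. *tbx5a*, a T-box factor of the dorsal retina that is also expressed in heart and fin, had 2880 reads in mutant-labelled and 389 in sibling-labelled eyes (2.62, interval 2.47 to 2.78). *tbx3a*, another T-box gene, had 2088 and 407 (2.09, interval 1.94 to 2.25), and the Bmp feedback gene *bambia* had 9028 and 3690 (1.02). Of the ventral homeobox genes, *vax1* had 2837 reads in mutant-labelled and 4844 in sibling-labelled eyes (-1.04, interval -1.11 to -0.97) and *vax2* had 701 and 829 (-0.51). *cyp1b1*, a P450 gene of the ventral eye, had 2792 and 7382 (-1.67, interval -1.73 to -1.61). The list had a median of 0.24, with 3 past 1 and 2 past -1. Its other members, dorsal and ventral ones among them, are not named here. Dorsal and ventral genes were not compared as sets.

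Müller glia genes (15 genes) had a median of 0.36, with 2 past 1 and 3 past -1. Among the low ones were genes of glutamate transporters. *slc1a2b* had 1819 reads in mutant-labelled and 6867 in sibling-labelled eyes (-2.18, interval -2.26 to -2.11), and *slc1a3b* had 767 and 1713 (-1.43), while the glutamine synthetase gene *glulb* had 63909 and 30215 (0.81). Another list holds genes of the visual cycle and of the retinal pigment epithelium, which recycles the chromophore of visual pigments. The values are of whole eyes, and which cells expressed these genes was not measured. In that list *rpe65b* had 3902 and 1237 reads (1.39), *rpe65c* had 485 and 195 (1.05) and *lrata*, an acyltransferase of retinol, had 486 and 102 (1.98). *rrh*, an opsin of that epithelium, had 128 and 618 (-2.53, interval -2.82 to -2.26). The list (22 genes) had a median of 0.19, with 4 past 1 and 1 past -1. Melanin genes (23 genes) had a median of -0.11.

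Crystallins, the proteins that fill lens fibers, had the lowest median of the 91 lists. Of 44 genes kept, 40 were past -1 and 35 past -2, around a median of -3.85, and they took 0.207% of the reads of mutant-labelled and 1.18% of those of sibling-labelled eyes. The classes differed in size. All 22 kept genes whose symbol is *crygm* and a digit were at -3.60 or less (median -5.75), against -2.93 for *crygmxl2* and -1.55 for *crygmx*. The sequences of the *crygm* genes were not compared. If they are alike, reads may have been shared out among them, so the genes may not be separate values. *cryaa*, the lens alpha-crystallin gene, had 95 reads in mutant-labelled and 2849 in sibling-labelled eyes (-5.16), and the abundant beta-crystallin genes *crybb1l1* (-2.51) and *cryba1b* (-2.47) lay nearer to 0. Of the 3 crystallin genes above 0, *crybb3* (70 and 13 reads, 2.12), *crygs4* (21 and 5) and *cryabb* (13 and 7), none had more than 100 reads. Among the other lens genes, 18 of 34 were past -1 and none past 1, around a median of -1.18. *mipb*, a lens aquaporin gene, had 2759 and 41931 reads (-4.19), *grifin*, a lens galectin-like gene, had 69 and 3390 (-5.87), *capn3a*, a calpain gene, had 4721 and 33406 (-3.09) and *bfsp2*, a beaded filament gene, had 706 and 5301 (-3.17), whereas *six3a* (964 and 614, 0.38) and *prox1a* (1761 and 1393, 0.07), which are expressed in the retina too, were not lower.

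Genes of surface tissues were higher in mutant-labelled eyes. Epidermis and ionocyte genes (32 genes) had a median of 1.70, with 27 past 1 and 1 past -1, and took 0.188% of the reads of mutant-labelled and 0.0841% of those of sibling-labelled eyes. *tp63*, the master factor of stratified epithelia, had 4506 and 1031 reads (1.86, interval 1.76 to 1.96). *cdh1*, the E-cadherin gene of epithelia, had 6380 and 1288 (2.04), and the annexin gene *anxa1c* had 11600 and 2088 (2.21). The ionocyte factor genes *foxi3a* (18 and 2 reads) and *foxi3b* (19 and 1) total 20 reads each, and their place at the top of the list follows from that minimum. Keratins (17 genes) had a median of 1.1 and took 0.991% and 0.271% of the reads. Within that family *krt96*, *krt97*, *krt4*, *cyt1l* and *cyt1* lay between 2.01 and 2.45, *krt18*, a keratin of simple epithelia, was at 0.26, and *krt222*, with 724 and 1987 reads, was alone below 0 (-1.72). Of 30 claudins, the proteins of tight junctions, 13 were past 1 and 2 past -1, among them *cldn1* (1059 and 256, 1.78) and *cldn7b* (4501 and 1150, 1.70). The basement membrane genes *col7a1* (12876 and 2594, 2.04), *lamb4* (5807 and 1053, 2.2) and *itga6b* (3916 and 778, 2.06) were near the top of the collagen and of the laminin and integrin lists.

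The genes highest above 0 included 2 gene clusters. Both spans given below were drawn around runs of neighboring genes all past 2, with 3 genes on chromosome 22 and 7 on chromosome 12. For the genes of these runs, being past 2 was fixed by that choice. On chromosome 22 of GRCz10, from 14026833 to 14090589, lie the hatching enzyme genes *he1a*, *he1b* and *he2*, which the hatching gland secretes to digest the egg envelope. Together they had 11610 reads in mutant-labelled and 57 in sibling-labelled eyes. *he2*, at 106 and 0 reads, was at least 29.4-fold higher against a floor of 3 reads. On chromosome 12, from 16470533 to 16829977, 11 rows of the table bear symbols of that locus, and all 11 were past 2, between 2.94 and 7.17. They had 34202 reads in mutant-labelled and 1338 in sibling-labelled eyes. RefSeq gives *ctsl*, for cathepsin L, as a synonym of 6 of their 9 symbols, and *hgg1* as a synonym of *ctslb*. The largest in reads were *zgc:174855* (10354 and 625, log2 3.78), *zgc:174153* (8896 and 227, 5.02), *si:dkey-26g8.5* (3710 and 21, 7.17) and *si:dkey-239j18.2* (3260 and 226, 3.58). The sequences of these genes were not compared. If they are alike, reads may have been shared out among them in counting, which leaves the value of each gene uncertain. At 72hpf no gene of either cluster reached 1 FPKM in either library. *ctsla*, another cathepsin L gene, had 26330 and 18337 reads (0.26).

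Sensory placode genes were higher as well. Ear, nose and lateral line genes (20 genes) had a median of 0.87, with 10 past 1 and none past -1. *stm* (starmaker), a gene of ear stone mineralization, had 35419 reads in mutant-labelled and 2678 in sibling-labelled eyes (3.46, interval 3.40 to 3.52), and *oc90*, an otolith matrix gene, had 378 and 95 (1.72). *cnga4*, a channel subunit of olfactory neurons, had 67 and 9 (2.57), and of the placode factor genes, *six4b* had 107 and 21 (2.06) and *six1b* had 112 and 37 (1.32). *lmx1a*, a LIM factor gene, had 210 and 16 reads (3.41, interval 2.71 to 4.28). Of 287 olfactory and taste receptor genes in the table only 17 were kept, 9 of them past 1 and none past -1. At such counts a gene whose reads fall in 1 library passes the minimum through that library, so that number is no evidence of a direction. The ear, nose and lateral line list names olfactory receptor genes too, and both lists have the same highest value, 5.83. Such members enter its median and its 10 past 1, and they too are no evidence of a direction. How far surface and placode tissue carried along in dissection sets these values was not tested.

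**Figure D4:**
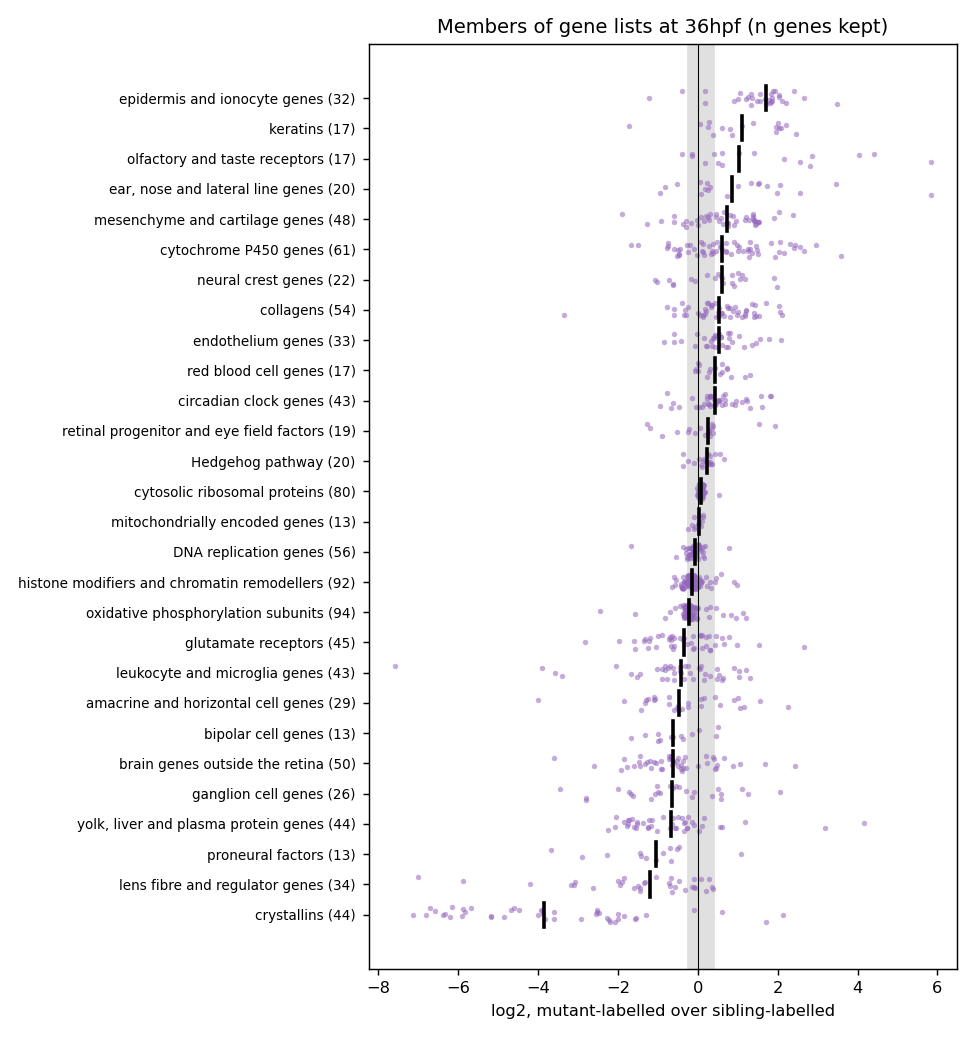
Log2 difference of mutant-labelled over sibling-labelled eyes (x axis) for the members of 28 gene lists at 36hpf (rows, number of genes kept in parentheses), ordered by the median, which is the black bar. Each dot is a gene, and the gray band spans the quartiles of all genes kept, -0.25 to 0.40. Medians run between 1.70 for epidermis and ionocyte genes and -3.85 for crystallins, and the ribosomal protein genes lie on a narrow line near 0.

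Mesenchyme and vessels lay above 0 by less than the epidermis. Mesenchyme and cartilage genes (48 genes) had a median of 0.72 (17 past 1, 2 past -1). They took 0.494% of the reads of mutant-labelled and 0.233% of those of sibling-labelled eyes. Of their homeobox genes, *dlx3b* (1618 and 474, 1.5) and *dlx4a* (621 and 137, 1.91) were high. *dlx1a* (525 and 1061, -1.28) and *dlx2a* (1084 and 1708, -0.92) were low. *dlx3b* is also in the ear, nose and lateral line list, and *dlx1a* and *dlx2a* in the brain list. Their values are therefore not particular to mesenchyme. Neural crest genes (22 genes) had a median of 0.60, with *snai2* at 4155 and 879 reads (1.97) and *sox10* at 564 and 524 (-0.16). Endothelium genes (33 genes) had a median of 0.52, with 7 past 1 and none past -1, among them the blood and vessel factor *tal1* (615 and 147, 1.80), the receptor gene *tie1* (2048 and 580, 1.55) and *etv2*, an early vascular factor (1812 and 545, 1.47). Red blood cell genes (17 genes) had a median of 0.44. Leukocyte genes (43 genes) had a median of -0.42, with 9 past -1 and 4 past 1, but their sum took 0.0236% of the reads of mutant-labelled and 0.0210% of those of sibling-labelled eyes. *mfap4*, a macrophage gene, had 15 and 192 reads (-3.90). Skeletal muscle genes (56 genes) had a median of -0.12, with 0.0491% and 0.0425% of the reads, and heart muscle genes 0.11 over 22.

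Genes of the brain outside the retina (50 genes) had a median of -0.63, with 15 past -1 and 3 past 1. *tbr1b*, a T-box factor of forebrain and of ganglion cells, had 284 reads in mutant-labelled and 1425 in sibling-labelled eyes (-2.59, interval -2.78 to -2.41), *eomesa*, another T-box gene, had 359 and 1124 (-1.91), and the homeobox gene *gbx1* had 8 and 85 (-3.59). *pax8*, of the midbrain border and the ear, had 3508 and 915 (1.67). In the pituitary list, genes lay far apart, with *LHX3* at 46 and 2609 reads (-6.08, interval -6.55 to -5.67), a factor of the pituitary and of some retinal and spinal neurons, and the prolactin gene *prl* at 362 and 43 (2.79, interval 2.35 to 3.3). Yolk, liver and plasma protein genes (44 genes) had a median of -0.67, with 20 past -1 and 3 past 1. The apolipoprotein gene *apoa1a* (663 and 1865, -1.76) and the transferrin gene *tfa* (179 and 507, -1.77) were low, and the vitellogenin gene *vtg2* (92 and 8, 3.19) and *ahsg1* (290 and 13, 4.17) were high.

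Among signaling pathways, single ligands differed by more than the lists. Bmp and Tgf-beta genes (71 genes) had a median of 0.23, with 11 past 1 and 4 past -1. *bmp2b* had 4962 reads in mutant-labelled and 765 in sibling-labelled eyes (2.43, interval 2.32 to 2.54), *bmp5* had 4828 and 1068 (1.91) and the receptor gene *bmpr1ba* had 5294 and 1509 (1.54). The secreted Bmp antagonists split, with *nog1* at 138 and 35 reads (1.70) and *nog3* at 120 and 489 (-2.29, interval -2.59 to -2.0). Of the Fgf ligands, *fgf8a* had 2617 and 1077 (1.01) and its paralog *fgf8b* had 47 and 151 (-1.94), around a median of -0.31 over 24 genes. In the retinoic acid pathway (28 genes, median 0.30), *cyp26a1*, which degrades retinoic acid, had 5371 and 1260 (1.82), the receptor gene *rxraa* had 5591 and 1368 (1.76) and *crabp1b*, a binding protein gene, had 16 and 146 (-3.41). Genes of p53 and cell death (58 genes) had a median of 0.05, with 6 past 1 and 4 past -1.

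The machinery of the cell differed little. None of 80 cytosolic ribosomal protein genes lay past 1 or -1, and their log2 differences had a median of 0.08 with quartiles at 0.05 and 0.10. They took 12.5% of the reads of mutant-labelled and 11.8% of those of sibling-labelled eyes. Also with none past 1 or -1 were 76 genes of mitochondrial ribosomal proteins (median -0.14), 65 splicing factors (-0.12), 58 translation initiation factors (0.02) and the 13 genes of the mitochondrial genome (0.03). Nuclear genes of oxidative phosphorylation (94 genes) had a median of -0.22, and 84 of these were below 0. Of 56 DNA replication genes, 1 was past -1 and none past 1. It was *rrm2_1*, a subunit of ribonucleotide reductase, with 11986 and 31483 reads (-1.66, interval -1.69 to -1.63). Its suffix marks a gene with more than 1 row, and the list has 56 rows for 55 symbols. No other row was past -1, and reads may have been split between rows of a gene. Cyclins, mitotic kinases and kinetochore genes (73 genes) had a median of -0.08. *ccnd1*, the cyclin of the G1 phase, had 104509 and 138808 (-0.68), *birc5b* had 17 and 89 (-2.62) and *cdc25d* had 88 and 16 (2.16).

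Genes that write, read or remove DNA methylation and histone marks were near 0. None of 26 genes of the Tet, Dnmt and demethylation list lay past 1 or -1, and the median was -0.12, with values between -0.90 for *gadd45aa* (102 and 159 reads) and 0.32 for the methyltransferase gene *dnmt3ba* (45667 and 30351). *tdg.1*, a glycosylase gene that excises oxidized methylcytosine, had 16816 and 18963 (-0.44). None of 92 histone modifiers and chromatin remodellers lay past 1 or -1 either, and 75 of them were below 0 (median -0.15).

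Stress and clock genes departed from that. In the heat shock and chaperone list, around a median of -0.03 over 90 genes, 13 were past -1 and 2 past 1. The inducible genes *hsp70.1* (1 read in mutant-labelled and 146 in sibling-labelled eyes, interval -12.77 to -4.96), *hsp70.2* (9 and 397, -5.65), *hsp70.3* (37 and 2495, -6.32) and *hsp70l* (62 and 1391, -4.74) were the lowest, and *hsf4*, a heat shock factor of the lens, had 40 and 283 (-3.07). The constitutive *hspa8* (500216 and 329911, 0.33) and *hsp90ab1* (717879 and 494287, 0.27) were slightly higher. Unfolded protein response genes (25 genes) had a median of 0.09. Circadian clock genes (43 genes) had a median of 0.44, with 8 past 1 and none past -1, led by *nr1d4b* (220 and 51 reads, 1.83), *cry-dash* (1335 and 315, 1.82), *per1a* (82 and 22, 1.61) and *per1b* (13189 and 3631, 1.59), a period gene. The labels give no time of day for the dissections, and what sets the stress and clock values was not tested.

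Genes far from 0 lay in few runs along the chromosomes. Positions, from the authors' 72hpf table, placed 20394 of the genes kept, and 9 runs of at least 3 neighbors were all past 2 or all past -2. The longest was the *crygm* cluster on chromosome 9, from 22245302 to 22555373, with 23 genes between -3.60 and -7.12 and 15134 reads in mutant-labelled against 234444 in sibling-labelled eyes. The share of chromosome 9 genes past -2 was 4.51%, and 1.59% without the *crygm* genes. The *hsp70* genes on chromosome 3 (25950471 to 26026195) made another run, and so did Hox genes of adjacent paralog groups, *hoxb3a* and *hoxb4a* on chromosome 3 (23567485 to 23730393) and *hoxd3a* and *hoxd4a* on chromosome 9 (1930642 to 1958755). *hoxb3a*, a hindbrain patterning gene, had 0 reads in mutant-labelled and 199 in sibling-labelled eyes, at least 79.8-fold lower against a floor of 3 reads, *hoxc4a* had 0 and 64, at least 25.7-fold lower, and *hoxd3a* had 28 and 244 (-3.36). *hoxb1b* (32 and 3) and *hoxb8b* (34 and 11) lay above 0. Only 9 of 49 Hox genes were kept, all low, so most of these passed the minimum through 1 library. On chromosome 23 (42327134 to 42501420) 4 of 9 *cyp2aa* and neighboring genes kept were past 2 and none was below 0, led in reads by *cyp2aa6* (1837 and 306, 2.32). Sequences within the runs were not compared, and reads of neighbors that are alike, such as paralogs, may have been shared out among them.

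Within 5 Mb of the mutated loci, differing genes were no more frequent than among all placed genes. Within 5 Mb of *tet2* (chromosome 1, 25662645 to 25693594) 14.2% of 141 genes lay past 1 or -1, and within 5 Mb of *tet3* (chromosome 5, 13809698 to 13826742) 7.48% of 107 genes, against 15.07% of all placed genes. Within 10 Mb the shares were 17.2% of 267 genes for *tet2*, above that of all placed genes, and 13.6% of 302 genes for *tet3*. Past 2 or -2 within 5 Mb were *cryaa* (-5.16), *itga6b* (2.06) and *si:dkey-281i15.10* (28 and 3 reads, 2.78) near *tet2*, and *nos1* (467 and 77, 2.33) and *vsig10* (523 and 105, 2.05) near *tet3*.

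The genes farthest from 0 at 36hpf were looked up in the eyes of both genotypes at 72hpf. The 72hpf eyes have 1 FPKM value per genotype, which is scaled by gene length and depth, and were processed apart. Each stage was therefore compared within itself, at 72hpf as a difference of log2(FPKM + 1), on which differences of low genes come out too small. Of 15441 genes kept at both stages, 3.5% were past 1 and 8.2% past -1 at 72hpf. Of 168 genes past -2 at 36hpf, 68 (40.5%) were past -1 at 72hpf and 8 past 1, and without the crystallins 50 of 133. Of 181 genes past 2 at 36hpf, 17 (9.39%) were past 1 and 13 (7.18%) past -1. Lower at both stages were *gpsm1a* (-2.79 at 36hpf and -1.05 at 72hpf), *grm2a* (-2.81 and -1.15), *slc1a2b* (-2.18 and -1.61), *rrh* (-2.53 and -1.31) and *tbr1b* (-2.59 and -1.11). Higher at both were *anxa1c*, an annexin gene of the epidermis (2.21 and 2.26), *prrx1b* of the mesenchyme (2.04 and 1.51) and *tnnt2a*, a heart troponin gene (2.34 and 2.07). The 8 genes that went the opposite way included *atoh7*, a gene of ganglion cell precursors that is in neither the proneural nor the ganglion cell list. It had 585 reads in mutant-labelled and 13794 in sibling-labelled eyes at 36hpf (-4.82), and 1.38 at 72hpf. *hoxb3a*, with 0 and 199 reads at 36hpf, had 2.43 and 0.565 FPKM at 72hpf (1.13). *cxcr4b* had -2.80 at 36hpf and 1.16 at 72hpf, with 21.7 FPKM in mutant-labelled and 9.19 in sibling-labelled eyes. Also among the 8 were *her13* (-2.33 and 1.72) and the muscle factor gene *myod1* (-2.25 and 1.27). These genes were chosen after their values were seen. Genes higher at 36hpf and lower at 72hpf included *chl1a*, a neural adhesion gene (2.1 and -1.75), and *nos1* (2.33 and -1.42).

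**Figure D5:**
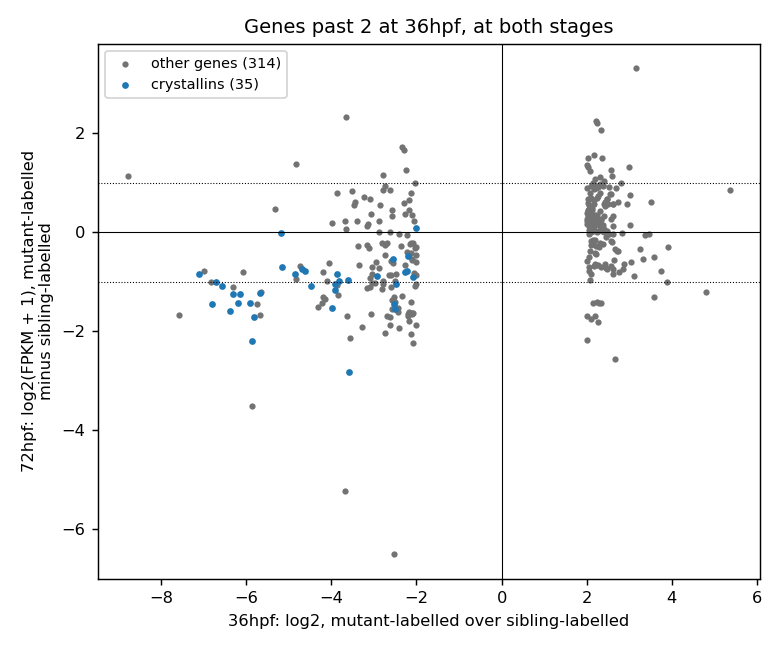
Difference in log2(FPKM + 1) at 72hpf between mutant-labelled and sibling-labelled eyes, positive where mutant-labelled eyes are higher (y axis), against the log2 difference at 36hpf (x axis) for the 181 genes past 2 and the 168 past -2 at 36hpf that were kept at both stages, crystallins in blue, with dotted lines at 1 and -1. Of the genes lower at 36hpf 68 lie past -1 at 72hpf, and those higher at 36hpf are spread on both sides of 0, with 17 past 1 and 13 past -1.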

How the data were processed

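RNA of dissected eyes was measured in 1 mutant and 1 sibling sample at 36hpf. The authors selected poly-A RNA for paired-end sequencing, and mapped and counted the reads on GRCz10 with CLC Genomics Workbench. The deposited 36hpf table has FPKM in its header, yet it holds expected counts, since each value is the mean of 2 whole counts. Further deposited columns average the log2 values of these 2 counts. At 72hpf the authors deposited FPKM values and gene positions, made with TopHat and the Cufflinks package. The authors' own fold changes and their table of changed genes at 72hpf were not used. The annotation release was not given in the sources used here.

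Means were doubled to sums, which needed no rounding, and scaled to their totals. Before a log2 difference, 0.5 reads scaled by relative depth were added. The minimum per gene was 20 reads, summed over the genotypes. Sums and mean log2 values gave back both counts for 30902 genes of mutant-labelled and 30950 of sibling-labelled eyes. Intervals are exact (Clopper-Pearson, 95%) and cover counting error only, since reads carry no molecular identifiers, and where a library has 0 reads the fold is a bound, set with 3 reads for that group. Genes at 72hpf needed 1 FPKM in either library and a symbol on 1 row.

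Samples were not tested against each other, each genotype having 1. The 91 gene lists, matched by symbol, overlap in part. Members and lists were chosen with earlier results of these data known, so they are no independent evidence. Of lists, up to 4 highest and 4 lowest members were named. Also named were the *tet* genes, the 6 highest and 6 lowest genes per level with at least 100 reads, the 10 largest gains and losses in CPM, the 10 genes with most reads, members of runs, and genes past 2 or -2 within 5 Mb of *tet2* and *tet3*. Names outside that rule serve as markers of a tissue or as contrasts and were chosen after their values were seen. The steps were tested on simulated counts. Alternatives were TMM (edgeR 4.0.16) and median-of-ratios scaling, other minimums, 2 reads added, and the larger or the smaller count alone. Python 3.11.15, scipy 1.17.1 and R 4.3.3 were used. Gene synonyms come from RefSeq.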

Additional observations from a re-analysis of the deposited data

Results flagged for a closer look

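Differences in opposite directions at the 2 stages, past 2 at both, were found for 3 genes. *PLCXD2* had a log2 difference of 2.66 at 36hpf and of -2.55 at 72hpf, *ponzr4* had 2.01 and -2.18, and *si:ch73-21g5.7* had -3.65 and 2.33. With 1 library per genotype and stage, the difference between the stages was not tested.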

How the results depend on the processing

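The counts of genes past a threshold depended on the minimum of reads. With 1 read as the minimum, 1021 genes were past 2, 810 past -2, 3526 past 1 and 2572 past -1, by construction through genes of few reads. With a minimum of 100 reads, 246 were past 2, 172 past -2 and 744 past -1. With 0.1 FPKM added at 72hpf in place of 1, 34 of the genes higher at 36hpf were past 1 at 72hpf, in place of 17, and 77 of the lower ones past -1, in place of 68. TMM and median-of-ratios scaling moved the median of all genes by -0.03 and -0.04. Of 8 list medians and 446 named genes at 1 or more in size, none changed sign under any of 7 alternatives. 1 list and 66 genes came under 1 in size under at least 1 of them. Of the medians under 1 in size, 9 changed sign under some alternative, none larger than 0.31 in size to 2 decimals. Those of GABA and glycine receptors and of skeletal muscle genes turned to 0.12 and that of pituitary genes (-0.31) to 0.06 with a minimum of 100 reads. With zero-read genes at their bound, list medians kept their values to 2 decimals. The design has 1 sample per genotype, so no replicate could be left out. No paired analysis was possible because each group holds 1 sample and no replicate numbers are shared. How the 2 counts behind each mean differ was not given in the sources used here.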

Other observations

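Gene families with a common symbol stem give a view that no tissue list guided. Over 266 stems with at least 10 genes kept, *crygm* had the lowest median (-5.75 over 22 genes) and *her*, bHLH repressors many of which are Notch targets, the next (-1.20 over 14 genes, 8 past -1 and 1 past 1). Metabotropic glutamate receptors (*grm*, 13 genes) followed at -0.59. At the other end, leaving out the stem *s*, whose genes are no family, stood *trpm* cation channels (1.07 over 10 genes, 5 past 1 and 2 past -1). Next were *itgb* integrins (0.96 over 13 genes, 6 past 1 and 1 past -1) and *anxa* annexins (0.76 over 14 genes, 6 past 1 and none past -1). The *ugt* glucuronosyltransferases lay at 0.69 over 20 genes.

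Enzymes of xenobiotic and steroid metabolism were high as a family. Of 61 cytochrome P450 genes kept, 24 were past 1, 10 past 2 and 2 past -1, around a median of 0.61 against 0.04 over all genes. *cyp2y3* had 3293 reads in mutant-labelled and 352 in sibling-labelled eyes (2.96, interval 2.80 to 3.12) and *cyp24a1*, which degrades vitamin D, had 271 and 38 (2.55). As a whole the family took 0.0587% of the reads of mutant-labelled and 0.0539% of those of sibling-labelled eyes, since its abundant members *cyp1b1* and *cyp26c1_2* (2821 and 6588, -1.49) were lower. Guidance molecules and their receptors (105 genes) had a median of 0.34, with 14 past 1 and 4 past -1, led by the ephrin receptor gene *epha6* (2146 and 132, 3.75, interval 3.5 to 4.02), with *slit1a*, a repellent of axons, at 10877 and 3244 (1.48). Among large families, 377 zinc finger genes had a median of 0.08 with 22 past 1, and 394 solute carriers had 0.11. Tubulin genes (25 genes) had a median of -0.27, and *tubb6*, with 84 and 634 reads (-3.17), was the only one past 1 or -1.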
